A study of Mus musculus with 125 samples.

Results

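The Obox family of homeobox genes was followed through single mouse embryos at the 2-cell stage. All 54 rows of the gene table whose mouse symbol starts with Obox were taken, out of 43421 genes, and no measured value entered that choice. They are 7 genes (Obox1, Obox2, Obox3, Obox5, Obox6, Obox7 and Obox8) and 47 pseudogene copies, of which 38 are named for Obox4, 8 for Obox3 and 1 for Obox6. Obox4 itself was not analysed here, so the Obox4 copies are given one by one and as 1 summed value. RefSeq coordinates on GRCm38.p6 were found for 52 of the 54 rows. Of these, 50 lie on chromosome 7 between 14517971 and 15839679, and the others, Obox3-ps8 and Obox6-ps1, lie on chromosome 17. Obox1 spans 15547257 to 15556846, Obox2 15388851 to 15398545, Obox3 15625306 to 15639777, Obox5 15750370 to 15759274, Obox6 15833250 to 15839679 and Obox7 14659708 to 14665996, all on chromosome 7. No coordinates were matched for Obox8 and Obox4-ps35.

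The study asked how the cytoplasm deals with separate parental pronuclei, and compared zygotes in which 1 pronucleus (1PN) or 2 pronuclei (2PN) were seen. C57BL/6 x JF1/Ms embryos, called BxJ here, gave 11 1PN, 8 1PNparth and 43 2PN embryos, and JF1/Ms x C57BL/6 embryos, called JxB here, gave 3 1PN, 4 1PNparth and 21 2PN embryos. The 1PNparth embryos looked like 1PN embryos under the microscope, and the submitters called them parthenogenetic from their sequence data. The group of 31 parthenotes, embryos with no paternal genome, was C57BL/6 without JF1/Ms, so in a comparison with BxJ 2PN embryos strain and the missing paternal genome cannot be told apart. A 1PNparth embryo, if parthenogenetic, holds the strain of its mother alone, while 2PN hybrids hold both strains. Strain and the missing paternal genome thus cannot be told apart there either, nor in how the 1PNparth effect differs between crosses. Which parent of a cross was C57BL/6 is not stated by the labels. One protocol is given for every sample: zygotes were picked 10 h post fertilization, micromanipulation took off their second polar body, and the embryos were lysed at 34 h, in the 2-cell stage. The 3 libraries labelled low quality and the 1 labelled dead were left out of the groups.

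Obox proteins are transcription factors with a homeodomain related to that of Crx. In the mouse, Obox1, Obox2, Obox5 and Obox7 transcripts are stored in the growing oocyte and run down after fertilization, whereas Obox3 and Obox4 are transcribed when the embryo switches on its own genome at the 2-cell stage. The family as a whole is needed for that switch, and its members can stand in for one another. The genes and copies sit in tandem in one cluster, and their sequences are so alike that a short read can match several of them.

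The promoter windows of Obox1, Obox3 and Obox5 are shown because they set a stored transcript beside the one the embryo makes itself. Sequences are from RefSeq on GRCm38.p6 and run 5′ to 3′ from 250 bases before the annotated start to 50 bases after it. Capitals mark the longest stretch shared by the windows of Obox1, Obox3, Obox5 and Obox7, which is 42 bases. The Obox1 window is chr7:15547007-15547306 on the plus strand, the Obox3 window chr7:15639728-15640027 on the minus strand and the Obox5 window chr7:15750120-15750419 on the plus strand.
Obox1: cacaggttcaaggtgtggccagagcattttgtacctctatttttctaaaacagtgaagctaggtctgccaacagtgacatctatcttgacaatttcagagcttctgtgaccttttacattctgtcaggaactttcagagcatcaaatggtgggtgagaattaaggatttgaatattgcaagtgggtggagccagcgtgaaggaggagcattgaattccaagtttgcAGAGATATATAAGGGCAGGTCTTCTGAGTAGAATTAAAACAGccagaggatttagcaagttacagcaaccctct
Obox3: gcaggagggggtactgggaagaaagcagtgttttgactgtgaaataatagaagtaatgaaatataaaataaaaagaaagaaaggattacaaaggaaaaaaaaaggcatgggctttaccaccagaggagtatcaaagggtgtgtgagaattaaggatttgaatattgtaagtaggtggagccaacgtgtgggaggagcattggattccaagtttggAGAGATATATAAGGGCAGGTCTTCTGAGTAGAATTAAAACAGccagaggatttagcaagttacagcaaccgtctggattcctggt
Obox5: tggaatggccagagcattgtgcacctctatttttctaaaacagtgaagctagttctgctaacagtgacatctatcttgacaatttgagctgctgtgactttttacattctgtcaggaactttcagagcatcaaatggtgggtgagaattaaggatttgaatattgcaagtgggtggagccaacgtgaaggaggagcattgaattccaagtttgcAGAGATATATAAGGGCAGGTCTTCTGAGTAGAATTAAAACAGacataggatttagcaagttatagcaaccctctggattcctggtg

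The shared stretch begins 24 bases before the start in Obox1, 35 in Obox3, 36 in Obox5 and 10 in Obox7. Over the last 150 aligned bases Obox1 and Obox3 were 94% identical, and Obox1 and Obox5 were 97.3% identical. Farther upstream, Obox1 and Obox3 matched at 30.9% of 139 bases and Obox3 and Obox5 at 38.3% of 149 bases. The annotated start of Obox2 lies upstream of the matching place in Obox1: after a shift of 97 bases their windows were 100% identical over 203 bases. The motif TAATCC, bound by homeodomains of the Crx type, was searched on both strands. It occurred 1 time in the Obox3 window, 168 bases before the start, and 0 times in the windows of Obox1, Obox2, Obox5 and Obox7; of all 32851 promoter windows of this length, 7.06% hold it. Obox6, Obox8 and the copies had no window in the table.

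Values are CPM, each gene's estimated count per 1000000 counts of the embryo, so that a change in a transcript and a change in the rest of the embryo's RNA cannot be told apart, nor can fewer cells with a transcript and less of it per cell. The 121 kept embryos had 533276 to 4887274 counts, with a median of 3392406, and 2 JxB 2PN embryos had under 1000000. Counts in this table need not be whole, as when a read is shared among places it matches. Of the values above 0, 91.7% were not whole for Obox3, 78.3% for its copies, 39.2% for the Obox4 copies and 75.3% for Obox1, Obox2, Obox5 and Obox7 together, against 28.5% over all genes. Obox4-ps35, at 5.08%, and Obox8, at 5.83%, were mostly whole. Levels of single copies are therefore uncertain, and sums over copies are given beside them. Reads of both strains were aligned to GRCm38, and whether they align equally well to the Obox rows was not tested.

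A few embryos stood apart and touch the results below. JxB 1PNparth embryos 1 and 2 held 74290 and 62910 CPM of a list of 42 oocyte-derived transcripts, against 14550 and 11190 CPM in embryos 3 and 7 of the same group, and 974 and 1163 CPM of a list of 40 transcripts of the 2-cell stage, against 15490 and 12630 CPM. BxJ 1PNparth embryo 10 held 80700 CPM of the oocyte-derived list, where its group had a median of 26720 CPM. BxJ 1PN embryo 9 held 42140 CPM of the 2-cell list, where its group had a median of 6998 CPM. Embryos 7 and 3 of the JxB 1PNparth group were the shallow ones of the 4, with 1002464 and 1532065 counts. All 11 markers of the 2-cell embryo that the table holds had counts in each of the 7 groups. That list includes stored oocyte transcripts such as Zp3, Gdf9 and Btg4. It was checked by group, so it does not show the stage of single embryos. The labels do not say which embryos shared a mother or a litter, so p-values measure the spread between these embryos.

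A member is called higher or lower where edgeR's quasi-likelihood test gave a Benjamini-Hochberg adjusted p under 0.05 over all genes tested; 41 members passed the filter on low counts, 25 of them Obox4 copies, and 13 Obox4 copies did not. Few genes were called in embryos with 1 pronucleus, and many in embryos without a paternal genome. Over both crosses, 11 of 40 members were higher in 1PN than in 2PN embryos and 0 were lower, where 0.101% of all genes tested were higher and 0% lower. In BxJ alone, 17 of 41 members were higher and 0 lower, beside 0.197% of all genes higher and 0% lower. All 11 and all 17 were Obox4 copies, and none of them was called without BxJ 1PN embryo 9. In JxB no member was called, beside 0.0082% of all genes higher and 0% lower. An unadjusted p under 0.05 was found for 1 member, beside 2232 of 24380 genes. DESeq2 called 5 Obox members lower, beside 5 genes higher and 659 lower. Limma voom called 0, beside 5 genes higher and 38 lower.

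The stored genes Obox1, Obox2 and Obox5 were called higher in 1PNparth embryos of both crosses and Obox7 in JxB alone, and Obox3, Obox6 and Obox8 were called lower in these and in parthenotes. In JxB the calls of the 4 stored genes and of Obox3 were lost without embryos 1 and 2, and those of Obox6 and Obox8 were not. In BxJ, 3 members were higher and 11 lower in 1PNparth than in 2PN embryos, beside 18.5% of all genes higher and 13.2% lower. In JxB, 11 were higher and 7 lower in 1PNparth than in 2PN embryos, beside 14.7% and 20.1% of all genes. With DESeq2's size factors in edgeR the split was 12 higher and 4 lower, beside 4610 higher and 3811 lower of 24380 genes. The split turned under some settings, with 6 higher and 11 lower by limma voom and 5 and 10 with the replicate block. It was 4 and 7 by edgeR's earlier method, 7 and 12 without embryo 3 and 6 and 10 without embryo 7. DESeq2 gave 4 each way. The split did not turn under others, with 7 and 3 with only the groups compared and 16 and 10 without the filter. Without embryos under 1000000 counts it was 15 and 11, and without embryos 1 and 2 it was 4 and 2. Without embryo 1 it was 13 and 3, and without embryo 2 it was 8 and 3. In parthenotes, 3 were higher and 15 lower than in BxJ 2PN embryos, beside 29.1% and 21.8% of all genes. The other size factors gave 6 higher and 14 lower, beside 8915 higher and 4210 lower of 24380 genes. The BxJ 1PNparth and parthenote comparisons share the 43 BxJ 2PN embryos, so they are not independent of each other.

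**Figure D1:**
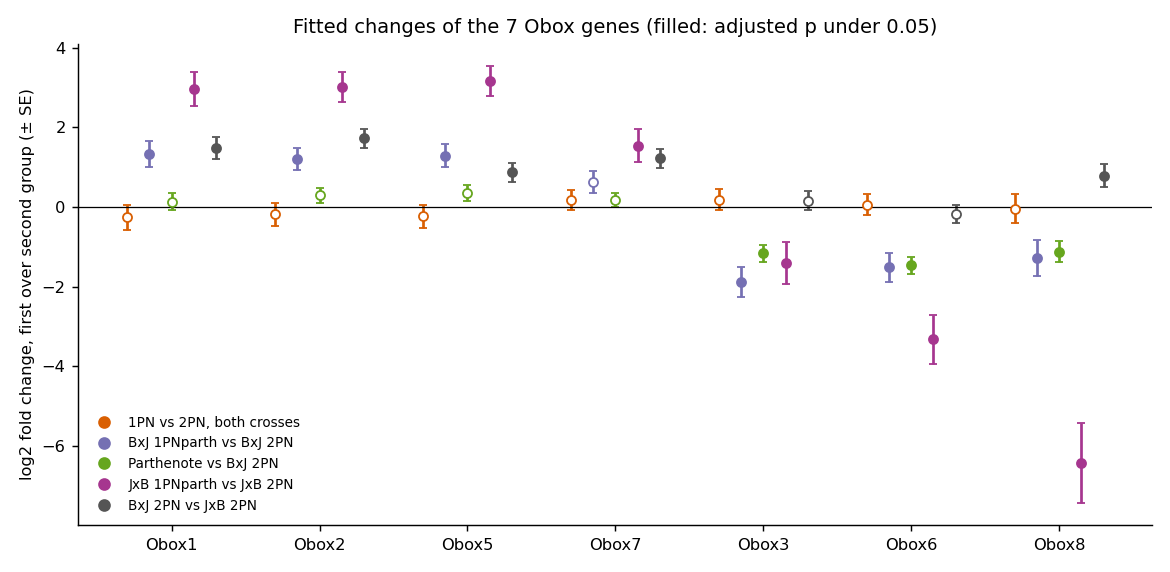
Log2 fold changes (y axis) of the 7 Obox genes (x axis) in 5 comparisons, from edgeR, with bars of 1 SE; filled points have an adjusted p under 0.05 over all genes. Obox1, Obox2 and Obox5 lie above 0 with filled points in 1PNparth embryos of both crosses, Obox3, Obox6 and Obox8 lie below 0 there and in parthenotes, and all points of 1PN embryos are open.

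Obox5, one of the stored genes, had a lowest, median and highest level of 677, 881 and 3130 CPM in the 8 BxJ 1PNparth embryos, against 86.8, 457 and 1357 CPM in the 43 BxJ 2PN embryos. JxB 1PNparth embryos 1, 2, 3 and 7 had 6452, 3912, 702 and 498 CPM, against 8.31, 231 and 1158 CPM as the lowest, median and highest of the 21 JxB 2PN embryos. Every 1PNparth embryo lay above the 2PN median of its cross, and the ranges overlapped in both crosses. The log2 fold change was 1.29 ± 0.29 (SE; edgeR adjusted p = 0.00036) in BxJ and 3.17 ± 0.38 (adjusted p = 3.8e-11) in JxB. Without JxB embryos 1 and 2 the JxB value was 0.94 and was not called.

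Obox1, also stored in the oocyte, had 170.5, 299 and 826 CPM as lowest, median and highest in BxJ 1PNparth embryos, against 8.76, 138 and 507 CPM in BxJ 2PN embryos. Levels of Obox1 in JxB 1PNparth embryos 1, 2, 3 and 7 were 794.5, 682, 168 and 162 CPM, against 0, 42.3 and 198 CPM in JxB 2PN embryos. Embryos 1 and 2 lay above every JxB 2PN embryo and embryos 3 and 7 within their range. Its fold changes were 1.33 ± 0.32 in BxJ and 2.95 ± 0.43 in JxB on the log2 scale (edgeR adjusted p = 0.00072 and 2e-08).

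Obox2, the stored gene whose promoter sequence matches that of Obox1, ran with it: their levels had a Spearman correlation of 0.92 over the 121 embryos, which share depth and reads. It had 111, 225 and 554 CPM as lowest, median and highest in BxJ 1PNparth embryos, against 21.6, 87.2 and 279 CPM in BxJ 2PN embryos. For Obox2, JxB 1PNparth embryos 1, 2, 3 and 7 held 531, 376, 94.1 and 119 CPM, against 1.04, 21.9 and 124 CPM in JxB 2PN embryos. Again embryos 1 and 2 stood above all JxB 2PN embryos. The log2 fold changes were 1.21 ± 0.28 in BxJ and 3.02 ± 0.37 in JxB, both called.

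Obox7, the fourth stored gene, had the smallest fitted changes of the 4. It was at 35.8, 60.9 and 112 CPM in BxJ 1PNparth embryos, against 10.2, 35.9 and 128 CPM in BxJ 2PN embryos, a log2 difference of 0.63 ± 0.28 that was not called (edgeR adjusted p = 0.079). Its levels in JxB 1PNparth embryos 1, 2, 3 and 7 were 142.9, 17.7, 33.6 and 21.9 CPM, against 0, 17.2 and 49.3 CPM in JxB 2PN embryos. Only embryo 1 lay outside the JxB 2PN range. The call in JxB, 1.54 ± 0.41 on the log2 scale with an adjusted p of 0.0018, was lost without embryos 1 and 2, as were those of Obox1 and Obox2, whose values were then 1.52 for Obox1, 1.64 for Obox2 and 0.67 for Obox7.

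In parthenotes none of the 4 stored genes was called against BxJ 2PN embryos. Obox5 had 306, 784 and 1387 CPM as lowest, median and highest in the 31 parthenotes, against 86.8, 457 and 1357 CPM in BxJ 2PN embryos. The medians differ while the ranges nearly coincide: 28 of 31 parthenotes lay above the BxJ 2PN median. The fitted log2 difference was 0.35 ± 0.19 for Obox5, 0.30 ± 0.19 for Obox2, 0.13 ± 0.21 for Obox1 and 0.18 ± 0.18 for Obox7, none of them called. Their median, 0.24, stands beside a median of 0.18 over all genes tested. Obox2 and Obox5 were called under the other size factors, DESeq2 and limma voom. The median over all genes was then 0.38, 0.39 and 0.16.

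**Figure D2:**
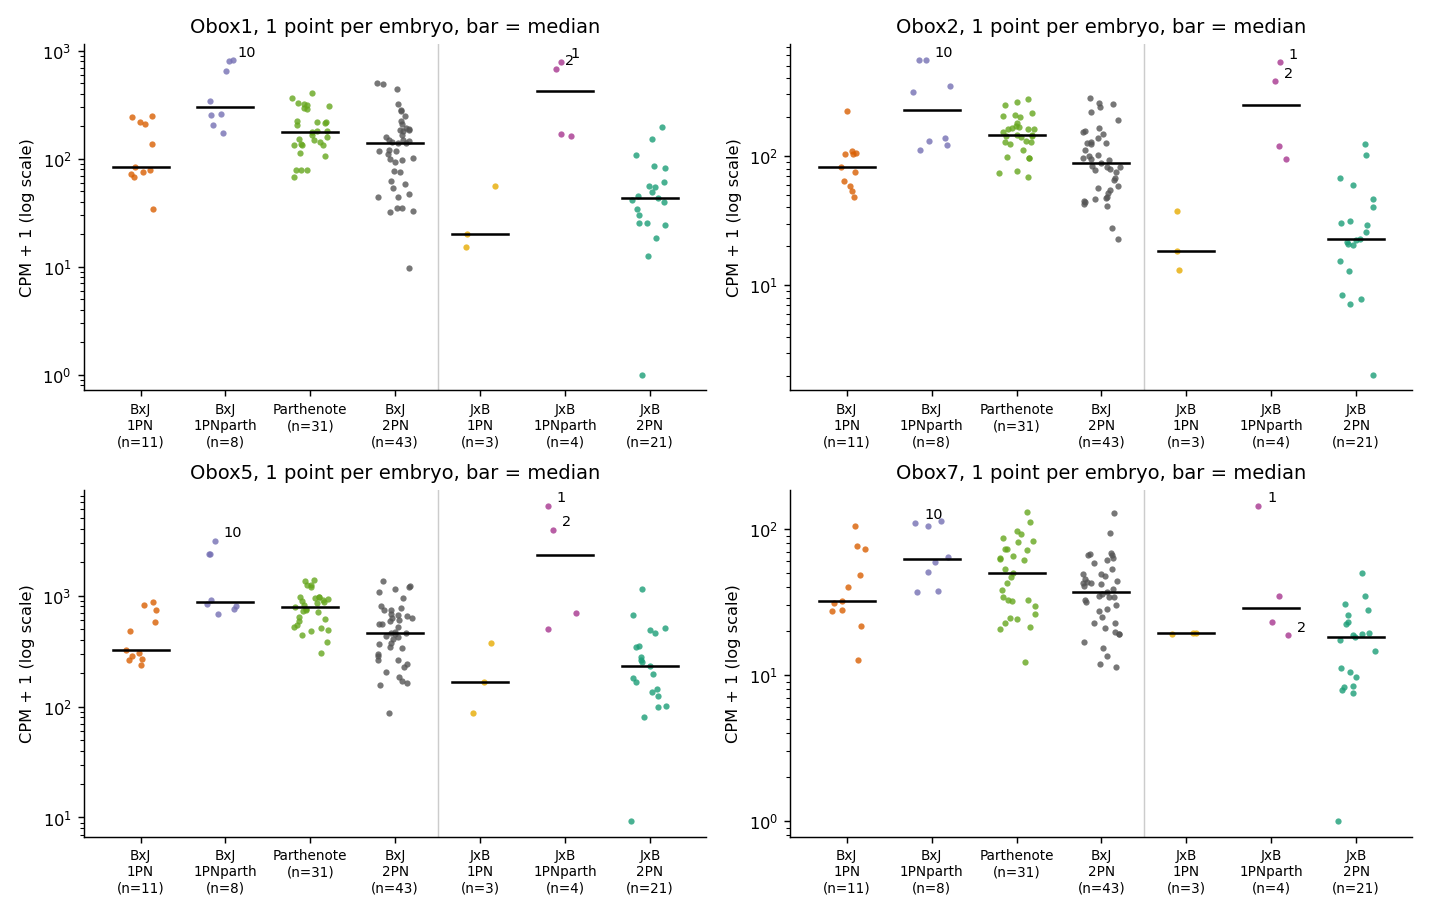
CPM + 1 on a log axis for the stored genes Obox1, Obox2, Obox5 and Obox7, 1 point per embryo and a bar at each group's median. JxB 1PNparth embryos 1 and 2 hold 6452 and 3912 CPM of Obox5, above all JxB 2PN embryos, and the 3 JxB 1PN embryos lie within the JxB 2PN range.

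Between BxJ 1PNparth embryos and parthenotes few members were called: 2 of 41 were higher and 1 lower, near the background of 3.41% of all genes higher and 1.57% lower. DESeq2 called 0 higher and 3 lower, beside 266 and 179 of 24380 genes, and limma voom 1 each way, beside 286 and 406. The 2 higher members by edgeR were Obox1 and Obox2. Obox1, with medians of 299 CPM in BxJ 1PNparth embryos and 175 CPM in parthenotes, differed by 1.20 ± 0.33 on the log2 scale, and Obox2, with 225 and 144 CPM, by 0.92 ± 0.29. For Obox5, with medians of 881 and 784 CPM, the difference was 0.94 ± 0.31 (edgeR adjusted p = 0.055). The lower member was Obox4-ps12, at -4.38 ± 1.28. None of the 3 calls held without BxJ 1PNparth embryo 10, when the values were 0.94 for Obox1, 0.62 for Obox2 and 0.61 for Obox5; this setting was chosen after seeing the data.

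In 1PN embryos that the submitters did not call parthenogenetic, no stored gene was called against 2PN embryos. Obox5 had 237, 325 and 879 CPM as lowest, median and highest in BxJ 1PN embryos, against 86.8, 457 and 1357 CPM in BxJ 2PN embryos. JxB 1PN embryos 4, 5 and 6 had 165, 85.8 and 374 CPM of Obox5, against a JxB 2PN median of 231 CPM. All 1PN values of Obox5 lay inside the 2PN range of their cross. The fitted differences in BxJ ran from -0.22 ± 0.29 for Obox5 to 0.15 ± 0.27 for Obox7, and none was called by edgeR.

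Obox3, which the embryo transcribes itself, had 31.4, 401 and 733 CPM as lowest, median and highest in BxJ 1PNparth embryos, against 558, 1171 and 3084 CPM in BxJ 2PN embryos. In parthenotes it had 95.8, 684 and 1282 CPM. All 8 BxJ 1PNparth embryos and 30 of 31 parthenotes lay below the BxJ 2PN median, and the ranges overlapped. The log2 fold changes against BxJ 2PN embryos were -1.89 ± 0.38 in BxJ 1PNparth embryos (edgeR adjusted p = 7.4e-05) and -1.17 ± 0.21 in parthenotes (adjusted p = 1e-06).

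The JxB embryos were split: JxB 1PNparth embryos 1, 2, 3 and 7 had Obox3 at 0.531, 24.1, 982 and 945 CPM, against 158, 1070 and 2267 CPM as lowest, median and highest in JxB 2PN embryos. The group thus held 2 embryos below every JxB 2PN embryo and 2 near their median. The fitted value was -1.41 ± 0.53 (adjusted p = 0.027). It was -0.35 without embryos 1 and 2, which also held least of the 2-cell list, and was not called (edgeR adjusted p = 0.86). The call was also lost under the other size factors (-1.10), by DESeq2 (-1.08), with only the groups compared (-1.37) and without either embryo alone (-1.02 without embryo 1 and -1.05 without embryo 2). It held with the replicate block (-1.94) and by limma voom, whose value was -4.97 (adjusted p = 3.1e-07).

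The copies named for Obox3 followed the gene, with which they share reads. Of the 8, 7 were lower in BxJ 1PNparth than in BxJ 2PN embryos and 7 were lower in parthenotes, while 3 were lower in JxB 1PNparth than in JxB 2PN embryos. The median log2 fold change of the 8 copies was -1.72 in BxJ 1PNparth embryos and -1.36 in parthenotes, beside medians over all genes of 0.19 and 0.18. In JxB 1PNparth embryos it was -1.35, beside -0.64 over all genes. Summed with Obox3, the family had a median of 1370 CPM in BxJ 1PNparth embryos and 1728 CPM in parthenotes, against 3580 CPM in BxJ 2PN embryos, with fitted values of -1.81 ± 0.38 and -1.29 ± 0.21. Obox3-ps8 on chromosome 17, whose values were seen before it was singled out, had medians of 0.295 CPM in BxJ 1PNparth embryos and 0.37 CPM in parthenotes, against 1.86 CPM in BxJ 2PN embryos, and was called lower in both (-2.81 ± 0.51 and -2.15 ± 0.27).

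Obox6, a member outside both the stored and the Obox3 and Obox4 classes, had 67.0, 439 and 839.8 CPM in BxJ 1PNparth embryos and 23.8, 508 and 803 CPM in parthenotes, against 474, 1131 and 2177 CPM in BxJ 2PN embryos. None of the 8 BxJ 1PNparth embryos and none of the 31 parthenotes reached the BxJ 2PN median. The log2 fold changes were -1.52 ± 0.37 and -1.47 ± 0.21, both called (edgeR adjusted p = 0.0011 and 3.2e-09).

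Obox6 was at 0 CPM in JxB 1PNparth embryo 1 and, in embryos 2, 3 and 7, at 8.24, 254 and 349.6 CPM, against 82.2, 1461 and 2327 CPM in JxB 2PN embryos. Here all 4 embryos were below the JxB 2PN median and embryos 1 and 2 were below every JxB 2PN embryo. The log2 fold change was -3.32 ± 0.62 (adjusted p = 7.4e-06). It was -2.19 and still called without embryos 1 and 2.

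Obox8 showed the widest gap in JxB. JxB 1PNparth embryos 1, 2, 3 and 7 had 0.531, 0, 25.5 and 8.98 CPM, or 50 counts in all, against 1.32, 411 and 2095 CPM in JxB 2PN embryos. Every 1PNparth embryo was far below the JxB 2PN median, and 2 of the 21 JxB 2PN embryos, 8 and 10, were below 25.5 CPM as well. JxB 2PN embryo 8 was also the lowest of its group for Obox3 and Obox6. The fitted log2 difference was -6.42 ± 1.01 (edgeR adjusted p = 1.9e-07), and -4.85 without embryos 1 and 2, still called. In BxJ 1PNparth embryos Obox8 had 12.4, 476 and 819 CPM and in parthenotes 19.5, 441 and 901 CPM, against 138, 892 and 2101 CPM in BxJ 2PN embryos. Those differences were -1.28 ± 0.45 (adjusted p = 0.023) and -1.12 ± 0.26 (adjusted p = 0.00014), and that in BxJ 1PNparth embryos was -1.10 with an adjusted p of 0.070 without embryo 10.

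Obox6-ps1, a copy on chromosome 17 at 61360572 to 61361615, was singled out after its values were seen. It was at 0, 0.222 and 0.714 CPM in BxJ 1PNparth embryos and 0, 0.283 and 1.20 CPM in parthenotes, against 0, 9.96 and 16.9 CPM in BxJ 2PN embryos. A count was present in 42 of 43 BxJ 2PN embryos, and every BxJ 1PNparth embryo and parthenote lay below the BxJ 2PN median. The log2 fold changes were -5.38 ± 0.64 in BxJ 1PNparth embryos and -5.11 ± 0.34 in parthenotes (edgeR adjusted p = 2.9e-11 and 7e-27). In JxB 1PNparth embryos it was -3.23 ± 0.70, with up to 6.85 CPM in embryo 3, against a JxB 2PN median of 11.9 CPM. Without embryos 1 and 2 it was -1.39 and not called (adjusted p = 0.35). In BxJ 1PN embryos its median was 8.07 CPM and the difference from 2PN embryos was -0.11 ± 0.27.

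**Figure D3:**
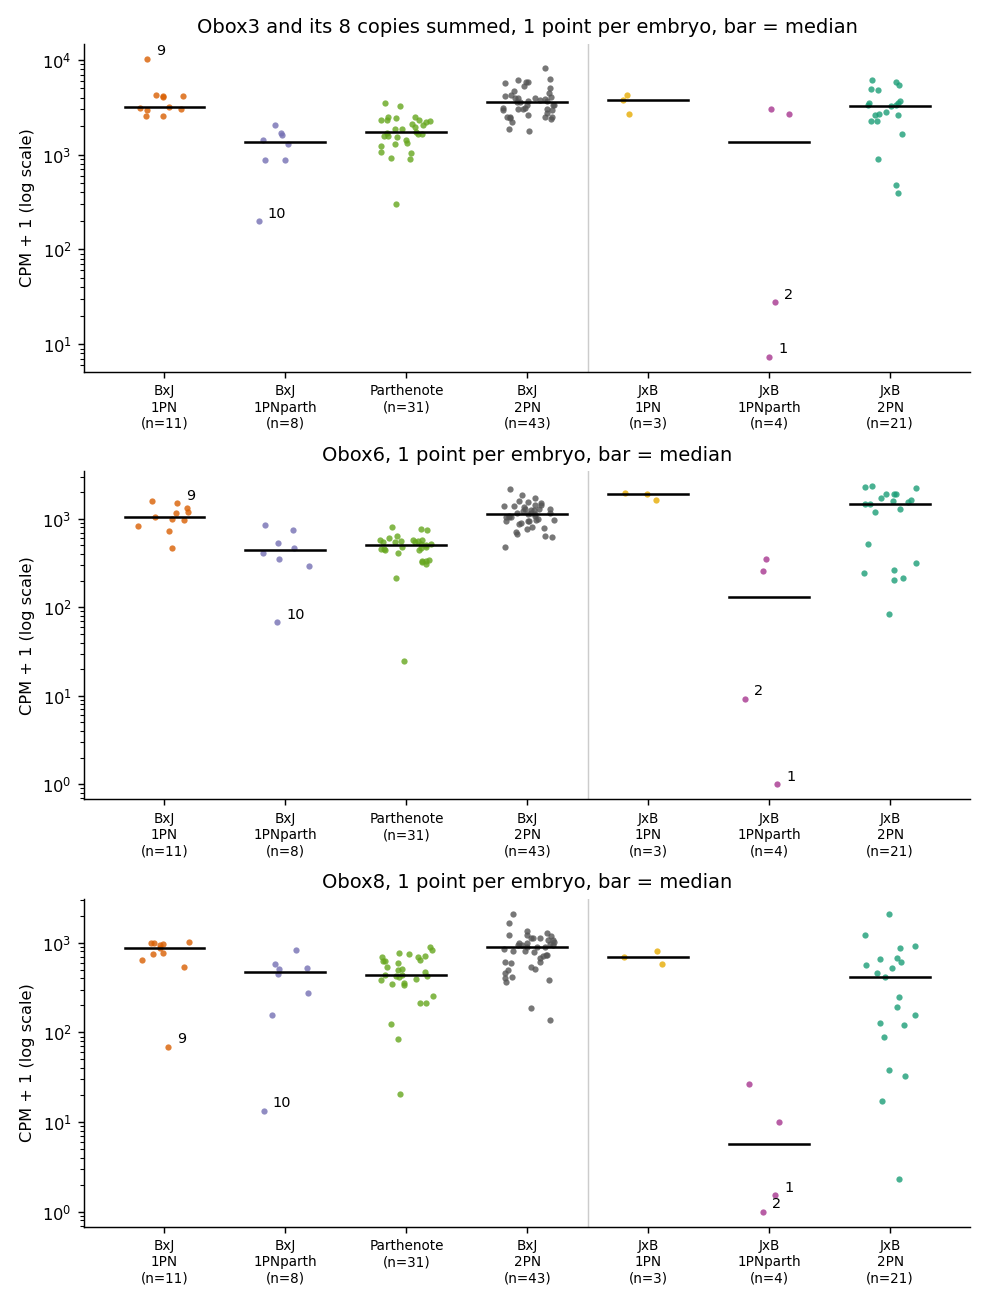
CPM + 1 on a log axis for Obox3 summed with its 8 copies, Obox6 and Obox8, 1 point per embryo and a bar at each group's median; embryos that stood apart are numbered. BxJ 1PNparth embryos and parthenotes lie mostly below the BxJ 2PN median, and JxB 1PNparth embryos hold at most 25.5 CPM of Obox8, against a JxB 2PN median of 411 CPM.

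In 1PN embryos none of Obox3, Obox6 and Obox8 was called. BxJ 1PN embryos had medians of 1058 CPM of Obox3, 1041 CPM of Obox6 and 881 CPM of Obox8, against 1171, 1131 and 892 CPM in BxJ 2PN embryos. BxJ 1PN embryo 9 was an exception within its group, with the highest Obox3, 3823 CPM, and the lowest Obox8, 67.6 CPM. JxB 1PN embryos 4, 5 and 6 had 1891, 1618 and 1965 CPM of Obox6, all above the JxB 2PN median of 1461 CPM and inside the JxB 2PN range. Their Obox3 was at 1475, 917 and 1406 CPM, against a JxB 2PN median of 1070 CPM, and their Obox8 at 575, 685 and 805 CPM, against 411 CPM. The log2 fold changes in JxB were 0.54 ± 0.51 for Obox6, 0.20 ± 0.52 for Obox3 and 0.49 ± 0.63 for Obox8.

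The Obox4 copies, marked as pseudogenes and close in sequence to a gene that the embryo switches on at this stage, were held very unevenly by the embryos. Mean levels over the kept embryos ran from 0.0113 CPM for Obox4-ps2, counted in 1 embryo, to 139.6 CPM for Obox4-ps35, counted in 118. The 13 copies that did not pass the filter on low counts averaged up to 0.263 CPM. Summed over the 38 copies, BxJ 1PN embryos had 63.4 CPM at the lowest, 106 CPM at the median and 6107 CPM at the highest, against 31.7, 124 and 1388 CPM in BxJ 2PN embryos. The median of BxJ 1PN embryos was thus below that of BxJ 2PN embryos, while 1 embryo exceeded them all. That embryo, BxJ 1PN embryo 9, held 12370 counts of the copies, 83.8% of its group's summed CPM and 19.7% of that of all 121 kept embryos. The next of its group, embryo 13, had 289 CPM, 3.97% of the group's sum.

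Other groups had carriers of their own, each named here with its share of its group's sum. BxJ 1PNparth embryos 4 and 11 held 207 and 199 CPM (21.8% and 20.99%), with 57.8, 91.0 and 207 CPM as the group's lowest, median and highest. Parthenote 29 held 554 CPM (9.29%), with 44.4 and 178 CPM as the lowest and median of parthenotes. BxJ 2PN embryo 1 held 1388 CPM (17.9%).

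In JxB the carriers included shallow libraries. JxB 1PN embryos 4, 5 and 6 had 99.8, 70.0 and 31.9 CPM, so that embryos 4 and 5 held 49.5% and 34.7%. The sums in JxB 1PNparth embryos 1, 2, 3 and 7 were 6.37, 274.5, 1057 and 1159 CPM, of which embryos 7 and 3 made up 46.4% and 42.3%. Among JxB 2PN embryos the lowest, median and highest were 0, 129.7 and 2322 CPM, and embryo 21, the shallowest kept library at 533276 counts, held 36.7%. JxB 1PNparth embryos 3 and 7 thus lay above all JxB 2PN embryos but embryo 21, and embryo 1 near their lowest.

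**Figure D4:**
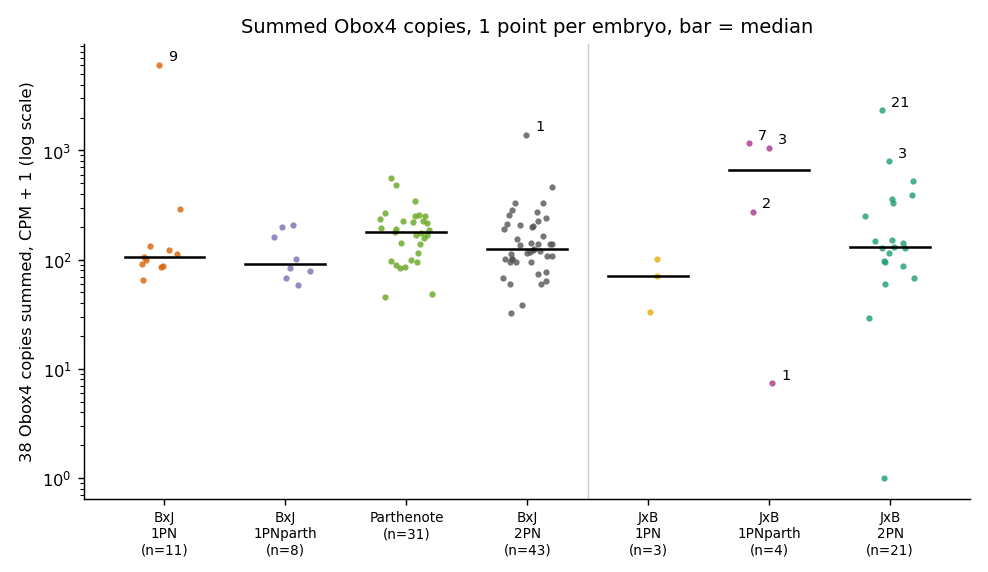
Summed CPM + 1 of the 38 Obox4 copies on a log axis, 1 point per embryo and a bar at each group's median, with the carriers numbered. BxJ 1PN embryo 9 stands at 6107 CPM, above its group's median of 106 CPM and above the highest BxJ 2PN embryo at 1388 CPM.

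In some of the carriers the copies were not raised in proportion. In most embryos nearly all of the sum came from Obox4-ps35, whose counts are almost all whole: its median share was 89.4% in BxJ 1PN, 86.6% in BxJ 1PNparth, 83.0% in parthenotes and 90.5% in BxJ 2PN embryos. It was 24.04% in BxJ 1PN embryo 9, 38.6% in BxJ 2PN embryo 1 and 1.86% in JxB 2PN embryo 21. BxJ 1PNparth embryos 4 and 11, also carriers, had 92.8% and 86.9%, and no JxB 1PN embryo had under 92.55%. In JxB 1PNparth embryos 1, 2, 3 and 7 the share was 0%, 0%, 11.2% and 6.63%, against a median of 71.5% in JxB 2PN embryos. The other copies thus held most of the counts in BxJ 1PN embryo 9, BxJ 2PN embryo 1 and JxB 2PN embryo 21. They also did in JxB 1PNparth embryos 3 and 7. The low share was common to all JxB 1PNparth embryos, among them embryo 1, whose sum was the lowest of its group. Without Obox4-ps35 the sum in BxJ 1PN embryos had a lowest, median and highest of 7.59, 11.3 and 4638 CPM, and embryo 9 held 97.1% of it.

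Single copies showed the same. Obox4-ps31 was at 0, 0.734 and 729 CPM as lowest, median and highest in BxJ 1PN embryos, against 0, 0.669 and 92.2 CPM in BxJ 2PN embryos. Obox4-ps9 was at 0.0903, 2.97 and 1352 CPM, against 0, 2.30 and 279 CPM in BxJ 2PN embryos. In both copies the medians are close and the highest value belongs to embryo 9; 7 of the 11 BxJ 1PN embryos lay above the BxJ 2PN median of Obox4-ps31. Their fitted log2 fold changes were 4.66 ± 0.56 for Obox4-ps31 (edgeR adjusted p = 4.1e-10) and 3.91 ± 0.64 for Obox4-ps9 (adjusted p = 2.1e-05), and -1.20 and -1.72 without embryo 9, neither called. Obox4-ps33, Obox4-ps27 and Obox4-ps36 were called at 4.03, 4.18 and 3.69 with embryo 9, whose levels of them were 552, 199 and 255.5 CPM, and not without it. Obox4-ps35, at 48.8, 95.2 and 1468 CPM in BxJ 1PN embryos and 28.3, 113 and 536 CPM in BxJ 2PN embryos, was not called.

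Of the 38 copies, 26 had their highest count in BxJ 1PN embryo 9 and 29 had a count there, while 6 had over 50% of all their counts in it. Without embryo 9, edgeR called no Obox member in BxJ 1PN embryos, with 1 at an unadjusted p under 0.05, beside 954 of 24352 genes. For the summed row, the difference between the group means of log2(CPM + 1) was 0.19 between BxJ 1PN and BxJ 2PN embryos, and the edgeR fit gave 2.13 ± 0.40 with embryo 9 and -0.72 ± 0.41 without it. Over both crosses the fit gave 1.84 ± 0.44 with it and -0.89 ± 0.41 without it. In JxB 1PN embryos the summed row fitted at -1.95 ± 0.98, and the 25 copies had a median of -4.16, beside -0.38 over all genes, with none called. BxJ 1PN embryo 9 also held 10700 CPM of a list of 26 other regulators of genome activation, where its group had a median of 4412 CPM. That list shares Zfp352 and the Zscan4 genes with the 2-cell list, so the sums of the lists are not separate observations.

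**Figure D5:**
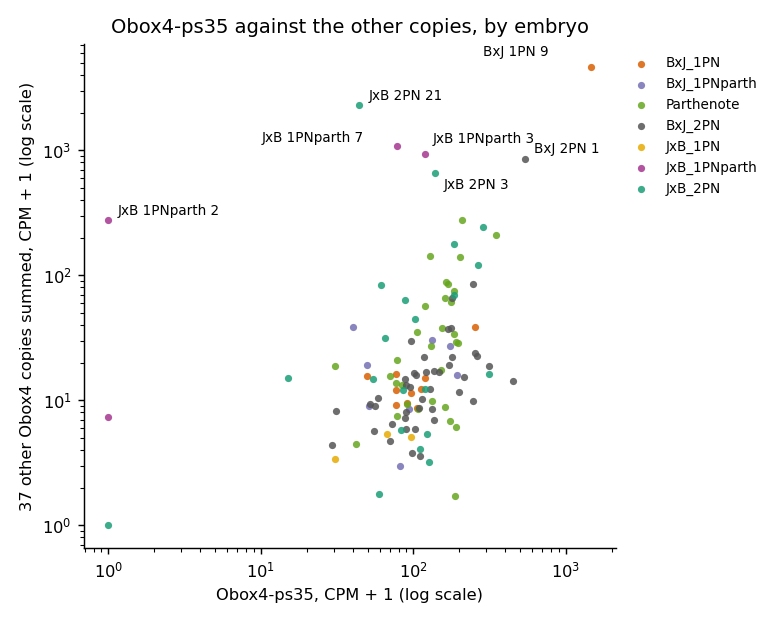
CPM + 1 of Obox4-ps35 (x axis) against that of the other 37 Obox4 copies summed (y axis), both on log scales, with 1 point per embryo coloured by group and carriers named. BxJ 1PN embryo 9 is at the upper right with 1468 CPM of Obox4-ps35 and 4638 CPM of the others, and JxB 1PNparth embryos 1 and 2 lie at the left edge with 0 CPM of Obox4-ps35.

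In embryos without a paternal genome the Obox4 copies gave no common direction. None of the 25 tested was called by edgeR in BxJ 1PNparth embryos, beside 18.5% of all genes higher and 13.2% lower. An unadjusted p under 0.05 was found for 4 copies, beside 10260 of 24380 genes. DESeq2 called 4 copies, beside 3135 genes higher and 2174 lower. Limma voom called 3, beside 2781 genes higher and 3192 lower. The summed row of BxJ 1PNparth embryos fitted at -0.86 ± 0.55 against BxJ 2PN embryos. The copies' median log2 fold change was -1.15, beside 0.19 over all genes. Among JxB 1PNparth embryos 7 of the 25 copies were higher than in JxB 2PN embryos and 0 lower, beside 14.7% of all genes higher and 20.1% lower. The median of the 25 copies was 1.79, beside -0.64 over all genes. DESeq2 called 0 of the 25, beside 2926 genes higher and 4735 lower of 24380. It gave 1 copy an unadjusted p under 0.05, beside 9447 genes. Limma voom called 3 copies, beside 2997 genes higher and 5132 lower. Obox4-ps33, for example, had 0, 45.5, 263 and 413 CPM in JxB 1PNparth embryos 1, 2, 3 and 7, against 0, 3.06 and 273.5 CPM in JxB 2PN embryos, or 2.86 ± 0.87 on the log2 scale (edgeR adjusted p = 0.0058). The summed row fitted at 1.04 ± 0.68, and at 1.89 ± 0.82 without embryos 1 and 2. In parthenotes 3 of the 25 copies were higher than in BxJ 2PN embryos and 4 lower. Both shares were below those of all genes, 29.1% higher and 21.8% lower. Obox4-ps3, one of the higher, was at 0, 3.81 and 21.9 CPM in parthenotes, against 0, 0 and 18.9 CPM in BxJ 2PN embryos, with a count in 23 of 31 parthenotes and 17 of 43 BxJ 2PN embryos (1.85 ± 0.42). The summed row, with medians of 178 CPM in parthenotes and 124 CPM in BxJ 2PN embryos, fitted at -0.18 ± 0.32. The difference of the means of log2(CPM + 1) was 0.26 there, so the measures of the sum differ in sign.

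Between the 2PN embryos of the crosses, the stored genes were higher in BxJ. In all, 7 members were higher in BxJ 2PN than in JxB 2PN embryos and 9 lower, beside 19.1% of all genes higher and 18.8% lower. The 7 included Obox1 (1.48 ± 0.27), Obox2 (1.73 ± 0.24), Obox5 (0.87 ± 0.23), Obox7 (1.22 ± 0.24) and Obox8 (0.79 ± 0.29). Obox5 had a median of 457 CPM in BxJ 2PN and 231 CPM in JxB 2PN embryos, with ranges that overlapped widely. Obox3, with medians of 1171 and 1070 CPM, was not called (0.16 ± 0.23), nor was Obox6 (-0.18 ± 0.23). Of the 9 lower, 8 were Obox4 copies, while Obox4-ps3, counted in 17 of 43 BxJ 2PN and 2 of 21 JxB 2PN embryos, was among the 7 higher (3.91 ± 1.36). Obox4-ps3 and the other copies outside the 6 with the highest mean were chosen after their values were seen. Without the 2 JxB 2PN embryos under 1000000 counts, 9 members were called instead of 16, and Obox8 (0.66) was not among them. Wider lists moved too. Of 41 tested oocyte-derived transcripts 14 were higher and 7 lower in BxJ 2PN embryos, and of 38 tested 2-cell stage transcripts 1 was higher and 20 lower. BxJ 2PN libraries had a median of 3867740 counts and JxB 2PN libraries 2522056, and the part of depth was not tested.

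Whether an embryo type had the same effect in both crosses was tested directly. For the 1PN effect edgeR called no member different between the crosses, beside 0% of all genes. An unadjusted p under 0.05 was found for 17 members, all of them Obox4 copies, beside 2170 of 24380 genes. DESeq2 called 12 members, beside 485 genes higher and 3 lower, and limma voom 0, beside 3 genes higher and 2 lower. Without BxJ 1PN embryo 9, 0 of 39 members had an unadjusted p under 0.05, beside 1950 of 24352 genes. The summed row of the Obox4 copies was then 1.24 ± 0.85, against 4.09 ± 1.19 with embryo 9. For the 1PNparth effect, 2 members were called with a higher value in BxJ and 8 with a lower one, beside 11.8% of all genes higher and 4.09% lower. By limma voom 10 members were higher and 7 lower, beside 3283 higher and 1295 lower of 24380 genes. For Obox1, Obox2 and Obox5 the difference between crosses (log2 fold change in BxJ minus that in JxB) was -1.62 ± 0.60, -1.81 ± 0.52 and -1.88 ± 0.54. For Obox6 and Obox8, which fell less in BxJ, it was 1.80 ± 0.63 and 5.14 ± 1.03. Without JxB 1PNparth embryos 1 and 2, 4 of 44 members were called, all lower and 2 of them among the 10, where 228 of all 26116 genes were higher and 342 lower. None of these 5 genes was then called, and Obox5 had the opposite sign, 0.41.

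Wider gene lists were counted in the same comparisons and are read against the shares of all genes given above. Of 41 tested oocyte-derived transcripts, 20 were higher and 3 lower in BxJ 1PNparth than in BxJ 2PN embryos, with a median log2 fold change of 0.84 beside 0.19 over all genes. In JxB 1PNparth embryos 17 were higher and 1 lower than in JxB 2PN embryos, with a median of 0.98 beside -0.64. In parthenotes 11 were higher and 8 lower than in BxJ 2PN embryos, shares near those of all genes, and the median of the list, -0.06, was below the 0.18 of all genes. Btg4, which promotes decay of stored mRNA, had values of 1.95 ± 0.29 in BxJ and 3.89 ± 0.39 in JxB 1PNparth embryos, and Bmp15, an oocyte growth factor, 1.81 ± 0.37 and 2.83 ± 0.49. BxJ 1PNparth embryo 10 and JxB 1PNparth embryos 1 and 2, which had high sums of this list, are in those counts.

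Of 25 tested other regulators of genome activation, 1 was higher and 10 lower in BxJ 1PNparth embryos, 3 higher and 11 lower in JxB 1PNparth embryos, and 8 higher and 13 lower in parthenotes, each against the 2PN embryos of its comparison. Nr5a2, a nuclear receptor active at the 2-cell stage, was lower in all of them, with log2 fold changes of -1.32 ± 0.32 in BxJ, -1.75 ± 0.48 in JxB and -0.44 ± 0.18 in parthenotes. Of 38 tested 2-cell stage transcripts, 16 were lower and 2 higher in JxB 1PNparth than in JxB 2PN embryos. In BxJ 1PN embryos 5 of these 38 were higher, among them Usp17la (2.92 ± 0.54), in the comparison that holds embryo 9. Of 26 tested other homeobox genes, 12 were higher and 3 lower in BxJ 1PNparth embryos, with a median of 1.1 beside 0.19 over all genes. In JxB 1PNparth embryos 7 were higher and 1 lower, with a median of 0.21 beside -0.64. Crxos, a homeobox gene at the Crx locus, went against most of those called. It was at -1.39 ± 0.35 in BxJ and at -6.40 ± 0.75 in JxB 1PNparth embryos.

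Markers of other cells were checked beside these results. Summed markers of cumulus and granulosa cells, which surround the egg, were 55.7 to 225 CPM in parthenotes and 43.1 to 213 CPM in BxJ 2PN embryos; 7 of 13 tested were higher and 1 lower, and Fshr, Lhcgr, Ptx3, Cd44 and Pgr were at 0 in every parthenote. In BxJ 1PNparth embryos their sum was 38.9 to 194 CPM, with 1 higher and 1 lower, and in JxB 1PNparth embryos 4.24 to 42.2 CPM, against 22.1 to 117 CPM in JxB 2PN embryos. Summed sperm and testis markers were 213 to 405 CPM in JxB 1PNparth embryos and 47.7 to 949 CPM in JxB 2PN embryos, with medians of 316 and 120.3 CPM; the 949 CPM belonged to JxB 2PN embryo 8, and the next embryo of its group had 375 CPM. Of the 10 tested, 2 were higher and 0 lower in JxB 1PNparth embryos, while in BxJ 1PNparth embryos and in parthenotes 2 were higher and 3 lower. Of the 16 in the table, 6 were at 0 in all 4 JxB 1PNparth embryos, Prm1, Tnp1 and Tnp2 among them, and 4 were at 0 in every JxB 2PN embryo. Summed markers of blood, immune and other cells were 29.5 to 164 CPM in parthenotes and 12.2 to 158 CPM in BxJ 2PN embryos, with 5 of 8 tested higher and 1 lower. None of these markers was called in 1PN embryos by edgeR. The part of these cells in the Obox results was not tested.

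Across the 121 embryos, the genes whose levels ran most like the 4 stored Obox genes summed, by Spearman correlation among the 9422 genes that averaged 10 CPM or more, were Mphosph6 and Bcl2l10 (0.92 each), Tcl1b2, Immp1l and Smim14 (0.91 each) and Btg4 (0.90). Those most like the summed Obox4 copies were Gm13078 (0.66), Gm29125, Gm12800 and Rfpl4b (0.65 each), and Gm6189 and Gm12794 (0.64 each). Over all 121 embryos the correlation was -0.63 between Obox5 and Obox6 and -0.38 between Obox1 and Obox3. Those values pool groups whose levels differ: within BxJ 2PN embryos they were -0.29 and -0.20, within parthenotes -0.20 and -0.23, and within JxB 2PN embryos -0.39 and 0.29. Obox1 and the summed Obox4 copies had 0.03 over all embryos, -0.33 within BxJ 2PN and 0.77 within JxB 2PN embryos. These correlations share libraries and depth, and are descriptions without a test.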

How the data were processed

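RNA was amplified from single 2-cell embryos with SMART-Seq v4 and made into libraries with Nextera XT, per the labels' protocols. Reads were aligned with HISAT2 2.0.5 to GRCm38 and counted per gene with featureCounts 2.0.0, per the submitters' processing notes; no source used here gives the annotation, the strand setting or how shared reads were counted. The deposited table holds the authors' estimated counts for 125 libraries, and 28.5% of its values above 0 are not whole.

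From there, the 4 libraries labelled low quality or dead were left out, values were rounded to whole numbers, genes with low counts were removed with filterByExpr by group, and edgeR 4.0.16 in R 4.3.3 was run with TMM factors and its quasi-likelihood test. The 1PN effect across crosses was fitted with type and cross as additive terms on the 6 hybrid groups (22785 genes), and all other comparisons from 1 fit of 7 group means (24380 genes). P-values were adjusted by Benjamini-Hochberg over all genes tested, at a threshold of 0.05. SE is the absolute log2 fold change over the square root of F. Summed rows were fitted in the same way and carry no p. The fits were tried on simulated counts with the same spread for all genes, no embryo that stood apart and no shared reads. That trial therefore does not bear on calls carried by 1 embryo or on the copies. Alternatives were DESeq2 1.42.0, limma 3.58.1 (voom), DESeq2-type size factors in edgeR (RLE), no filter, only the groups compared, rounding down, embryos under 1000000 counts left out, a replicate block and single embryos left out. Levels were summarised with Python 3.11.15, pandas 2.3.3, numpy 2.4.6 and scipy 1.17.1, and plots made with matplotlib 3.10.9.

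The genes named with full values are the 7 Obox genes and the 6 Obox4 copies with the highest mean CPM, and Obox3-ps8, Obox6-ps1 and single Obox4 copies outside these were chosen after their values were seen. The members, lists and rules were chosen with earlier results of these data known. The depth per embryo is given with the results, and no pair of libraries of a group had counts that matched within sampling noise. Copy levels rest on few counts in most embryos and on reads that several copies can share.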

Additional observations from a re-analysis of the deposited data

Results flagged for a closer look

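Several values stood far from the others of their group, and 4 were found among 32 groups of values. By a rule on group size, the screen covered only the 1PNparth groups of the crosses, so all 4 had to be in 1PNparth embryos. The other groups, with their carriers of Obox4 copies, were not screened. A rate of about 1 such value in 20 groups by chance need not hold for rows near 0 CPM, where 1 count can be flagged. The 4 values are therefore not read against that rate. JxB 1PNparth embryo 1 held 142.9 CPM of Obox7, against 17.7 to 33.6 CPM in the other embryos of its group. Among BxJ 1PNparth embryos, embryo 22 held 4.25 CPM of Obox4-ps33, embryo 10 held 0.296 CPM of Obox4-ps31 and embryo 19 held 0.635 CPM of Obox4-ps36, where the group medians were 0 CPM for Obox4-ps33 and Obox4-ps31 and 0.0739 CPM for Obox4-ps36. These 3 values rest on few counts, 1 of them on 1 count.

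For 10 members the 1PNparth effect differed between the crosses by the interaction term (edgeR, adjusted p under 0.05). The log2 fold change in BxJ minus that in JxB was -1.62 for Obox1, -1.81 for Obox2 and -1.88 for Obox5, which are stored in the oocyte. It was 1.80 for Obox6 and 5.14 for Obox8. Among the copies it was -2.61 for Obox3-ps8, -5.03 for Obox4-ps30, -7.87 for Obox4-ps31, -5.77 for Obox4-ps33 and -5.68 for Obox4-ps36; Obox4-ps30 was chosen after its values were seen. JxB 1PNparth embryos 1 and 2, with the high oocyte-derived and low 2-cell lists, are 2 of the 4 embryos behind one side of each value, and the part of these embryos beyond leaving them out was not tested.

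Of the 3 left-out 1PN libraries of BxJ, 2 held more of the 4 stored genes together than every kept BxJ 2PN embryo, and 1 did not. The library labelled dead, number 16, held 4673 CPM of Obox5, 221 CPM of Obox7 and 5623 CPM of the 4 stored genes together. The library labelled low quality, number 6, held 641.5 CPM of Obox1, 464 CPM of Obox2, 2793 CPM of Obox5, 182 CPM of Obox7 and 4081 CPM of the 4 together. The other low-quality library, number 8, held 1149 CPM of the 4 together. Obox3, Obox6 and Obox8 were at 7.42, 6.48 and 2.255 CPM in library 16 and at 140.6, 152.6 and 16.35 CPM in library 6. In library 8 they were at 1152, 580 and 392 CPM. The highest kept BxJ 2PN embryo had 1993 CPM of the 4 together, 507 CPM of Obox1 and 279 CPM of Obox2, so that library 16, with 489 CPM of Obox1 and 240 CPM of Obox2, lay within the BxJ 2PN range for those genes.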

How the results depend on the processing

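Of the comparisons of 1PNparth embryos with 2PN embryos in BxJ (14 members called) and of parthenotes with BxJ 2PN embryos (18), the counts stayed within 1.5 times under every alternative. The others moved, and the cause was not tested except where embryos were left out. For 1PN over both crosses (11) the count was 4 with DESeq2, 0 with limma voom, 0 with the replicate block, 19 without the filter, 17 with edgeR's earlier quasi-likelihood method, and 0 to 14 when single embryos were left out, 0 being without BxJ 1PN embryo 9. For 1PN in BxJ (17) it was 6 with DESeq2, 0 with voom, 0 with the block, 3 with only the groups compared and 0 without embryo 9. For 1PN in JxB (0) it was 5 with DESeq2 and 2 without the filter. For 1PNparth in JxB (18) it was 8 with DESeq2, 11 with the earlier method, 10 with only the groups compared, 6 without embryos 1 and 2, all among the 18, and 11 to 19 leaving out single embryos, lowest without JxB 1PNparth embryo 2. Between the 2PN groups (16) it was 7 with the block, 10 with only the groups compared, 26 with voom and 9 without shallow embryos. Between BxJ 1PNparth embryos and parthenotes (3) it was 0 with the block, 0 with the earlier method, 9 without the filter and 0 without BxJ 1PNparth embryo 10. The 1PN interaction (0) gave 12 with DESeq2 and 14 without the filter. The 1PNparth interaction (10) gave 3 with the block, 17 with voom, 4 without JxB embryos 1 and 2, and 5 to 10 leaving out single embryos, lowest without JxB 1PNparth embryo 1.

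Without BxJ 1PN embryo 9 the 1PN effect turned negative over both crosses for Obox4-ps9 (-2.21), Obox4-ps33 (-3.43), Obox4-ps31 (-1.73), Obox4-ps36 (-2.83) and Obox4-ps27 (-0.87), where leaving out other embryos gave up to 3.71, 3.95, 4.56, 3.54 and 3.86, and in BxJ for Obox4-ps9 (-1.72), Obox4-ps33 (-2.29), Obox4-ps31 (-1.20) and Obox4-ps36 (-2.29). With the replicate block the values over both crosses were -0.45 for Obox4-ps9, -1.16 for Obox4-ps33, -0.58 for Obox4-ps31 and -0.66 for Obox4-ps36, and with voom -0.12 for Obox4-ps9 and -0.38 for Obox4-ps33. In the 1PNparth interaction Obox3, not called, was 2.85 with voom and Obox5 was 0.41 without JxB embryos 1 and 2. The replicate numbers are shared but gave no pairing: the median correlation of same-numbered embryos ran from -0.054 to 0.041. The earlier method, the summed rows and leaving out BxJ 1PNparth embryo 10 were chosen after seeing the data. The JxB comparisons rest on 3 1PN embryos, of 2951223 to 3201322 counts, and on 4 1PNparth embryos, of which the shallowest had 1002464.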
